A study of Drosophila melanogaster with 4 samples.

Results

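The regions described are the clusters of histone H4 acetylated at lysine 8 (H4K8ac) on the X chromosome of Drosophila melanogaster, with the centromere-proximal end left out. A cluster is a stretch of the genome that the authors called enriched in chromatin immunoprecipitation and sequencing (ChIP-seq). A member is a cluster on the X that ends at or before base 20422827 of FlyBase release 5, which leaves out the 2 Mb nearest the centromere. This rule took 1722 of the 9912 clusters of the series-wide list, 876 of the 5692 clusters of replicate 1 and 797 of the 5482 clusters of replicate 2. The left-out end held 57 X clusters in the series-wide list, 19 in replicate 1 and 22 in replicate 2. In the series-wide list the last member lay at 20387400 to 20388400 (score 0.492) and the next cluster, outside, at 20463104 to 20464340 (score 0.873). The last members of the replicate lists lay at 20376020 to 20379409 and 20375887 to 20378401, and the next clusters outside at 20528739 to 20532768 and 20528620 to 20530449.

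The study used whole larvae of the wild-type strain Oregon-R in the third instar, after which the animal pupariates. It had 2 groups, H4K8ac ChIP with 2 replicates and input DNA with 2 libraries, and all 4 libraries came from the same strain and stage. The antibody was an affinity-purified rabbit polyclonal raised against an acetylated peptide of human histone H4. The clusters of the 2 ChIP replicates and of the series-wide list were analysed, and no input file was used here. The labels do not give the sex of the larvae, and nothing in them says that the replicates came from separate collections, so the spread between replicates may be technical. In whole larvae, a mark present in fewer cells and a weaker mark in each cell cannot be told apart.

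Acetylation of the H4 tail loosens the contact of nucleosomes with DNA and with each other, and H4K8ac is found in open and transcribed chromatin. In Drosophila, males carry a single X and raise its transcription through the MSL complex, whose acetyltransferase MOF acetylates another lysine of the same tail, H4K16, over active X genes. The autosomal arms 2L, 2R, 3L and 3R, each without its own 2 Mb nearest the centromere, serve here as the comparison. Arms are parts of a single genome and not replicates, so no p-value is attached, and a difference is read against the spread of the 4 arms and of the replicates.

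H4K8ac clusters covered less of the X than of any autosomal arm. The X was covered over 11.0% in replicate 1 and 10.0% in replicate 2, and the autosomal arms over 14.3% to 19.3% and 13.2% to 18.1%. The ratio of the X to the mean of the 4 arms was 0.649 ± 0.0069 (SD, n = 2). The series-wide list covered 24.8% of the X and 27.8% to 35.0% of the autosomal arms, a ratio of 0.790. The X had fewer clusters per Mb in the replicates, with 42.9 and 39.0 on the X, against 46.6 to 58.3 and 45.7 to 57.1 on the autosomal arms. At 84.3 per Mb, the series-wide density of the X lay within the autosomal range of 82.6 to 94.7. The lower coverage of the X was thus present in every list, while its lower density was present in the replicate lists. Coverage counts called bases only. The sex of the larvae, and so the copy number of the X, is not known, and no read depth was available. Their part in the lower coverage was not tested.

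Along the X the mark was uneven, with a dense stretch near the distal end, a long and on average sparser middle and another dense stretch before the proximal limit. In windows of 250 kb, the stretch from 0.5 to 3.75 Mb was covered over 22.1% in replicate 1, 19.8% in replicate 2 and 40.5% for the series-wide list. It makes up 15.9% of the X used here but held 31.9% of the replicate 1 cluster bases, 31.4% of those of replicate 2 and 26.0% of those of the series-wide list. From 3.75 to 18.25 Mb the coverage was 8.08%, 7.44% and 20.6% in the same 3 lists. Between 18.25 and 19.5 Mb it was again high, at 22.3%, 21.2% and 44.3%. The outermost 0.5 Mb had 3.21%, 3.03% and 10.8%, and the stretch from 19.5 Mb to the limit had 6.96%, 5.07% and 17.3%. These borders were drawn with the values in view, and single windows departed from them. In the middle, the window from 6500001 to 6750000 was covered over 24.6% in replicate 1 and 22.4% in replicate 2, and that from 13000001 to 13250000 over 21.9% and 18.9%. In the distal dense stretch, the window from 3000001 to 3250000 was covered over 11.5% and 8.39%.

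The 5 most covered windows of 250 kb, by the mean of the replicates, lay in these dense stretches. The window from 2750001 to 3000000 was covered over 31.6% in replicate 1 and 43.7% in replicate 2, the widest gap between the replicates on the X, and over 69.5% in the series-wide list. The window from 1000001 to 1250000 had 35.7% and 32.6% in the replicates and 65.9% in the series-wide list. The next window, from 1250001 to 1500000, had 31.6%, 30.2% and 46.8%. The remaining windows were 3250001 to 3500000, with 32.3%, 25.3% and 42.4%, and 18750001 to 19000000, with 26.9%, 24.9% and 50.8%. At 100 kb, the most covered window of the X was 1400001 to 1500000, with 63.2% in replicate 1 and 61.4% in replicate 2. On each of the 4 autosomal arms the most covered 100 kb window reached at least 88.2% in replicate 1 and 85.3% in replicate 2, so the peak of the X lay below that of every other arm.

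The 5 least covered windows of 250 kb all lay between 3.75 and 14.5 Mb. From 3750001 to 4000000, directly after the distal dense stretch, neither replicate had a cluster and the series-wide list covered 3.61%. The window from 10750001 to 11000000 had 1.22% in replicate 1 and none in replicate 2. The others, at 14250001 to 14500000, 11750001 to 12000000 and 5000001 to 5250000, had 0.626% to 0.728% in replicate 1 and 0.582% to 1.12% in replicate 2. Apart from the window without replicate clusters, their series-wide coverage was between 2.31% and 7.72%. These windows were sparse in all 3 lists.

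**Figure D1:**
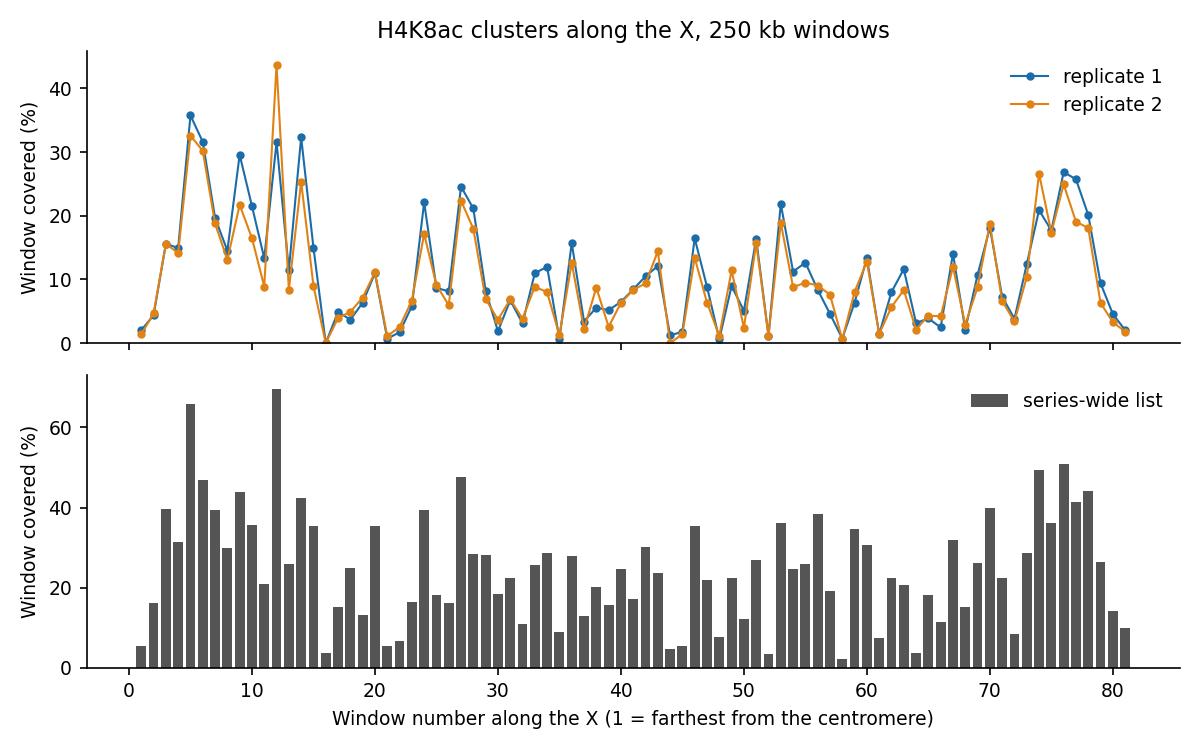
Share of each 250 kb window of the X covered by H4K8ac clusters (vertical axis, percent), by window number from the distal end (horizontal axis), for the 2 replicates (upper panel, lines with points) and the series-wide list (lower panel, bars). High windows group near the distal end and again near the proximal limit, and the replicate lines run close together, with a Spearman correlation of 0.965 over the 81 windows.

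The grouping of dense windows stood out at the 250 kb scale. The correlation of a window's coverage with that of the next window was 0.386 on the X in replicate 1, 0.272 in replicate 2 and 0.214 for the series-wide list. On the autosomal arms it ran from −0.024 to 0.125 in replicate 1, from −0.045 to 0.145 in replicate 2 and from −0.061 to 0.130 in the series-wide list. At 100 kb the X did not stand apart, with 0.246 and 0.239 in the replicates, against 0.228 to 0.359 and 0.199 to 0.360 on the autosomal arms. Neighbouring windows share clusters that cross their border, so these correlations describe the profile only.

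The share of windows without a cluster on the X lay inside the autosomal range. Of its 204 windows of 100 kb, 20.1% were empty in replicate 1 and 17.6% in replicate 2, and the mean over the 4 arms was 15.9% and 16.2%. In both replicates the X lay above 2R, 3L and 3R and below 2L, which had 22.4% and 24.3%. The series-wide share was 4.41%, below the autosomal mean of 4.99%. On the X 26 windows were empty in both replicates and 9 in all 3 lists. On the autosomal arms, with 191 to 259 windows each, 10 to 39 were empty in both replicates and 3 to 15 in all 3 lists. The median window of the X was covered over 6.51% and 6.03% in the replicates, below the lowest autosomal medians of 9.43% and 8.20%.

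The lower coverage of the X came with a shortage of long clusters, while the typical cluster was close in length to an autosomal one. The median length on the X was 1908 bp and 1866 bp in the 2 replicates, and the medians of the autosomal arms were 1977 to 2031.5 bp and 1962 to 2026 bp. The X median in the list of the whole series was 1783 bp, within the autosomal range of 1779 to 1829 bp. The mean differed more, with 2565 bp and 2572 bp on the X and 3191 bp and 3028 bp over the 4 arms, a ratio of 0.827 ± 0.032 (SD, n = 2). The 90th percentile of length was 4209 bp and 4175 bp on the X, and 5912 bp and 5447 bp on average over the 4 arms. The upper tail thus set the X apart by more than the middle of the distribution did.

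Clusters of 10 kb or more made this difference plain. The X had 18 of them in replicate 1 and 17 in replicate 2, or 2.05% and 2.13% of its clusters, with autosomal arms at 2.98% to 4.36% and 2.53% to 3.75%. The series-wide list had 63 (3.66%) on the X, against 5.42% to 7.14%. Such long clusters held 11.1% of the cluster bases of the X in replicate 1, 12.3% in replicate 2 and 22.4% for the series-wide list. The autosomal means were 21.0%, 18.1% and 35.4%. The X thus lay below the lowest autosomal arm in the share of long clusters in all 3 lists.

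The 63 long series-wide clusters of the X together span 1.14 Mb, and 26 of them lay in the first 4 Mb. All 63 met a cluster of each replicate, and the replicates covered a median of 75.8% and 70.7% of their length. No autosomal share is given beside this count. In the replicate lists, every cluster of 10 kb or more, on the X and on each autosomal arm, was found in the other replicate. The longest of the 63 ran from 1462568 to 1522892, 60.3 kb with a score of 0.960. Replicate 1 clusters covered 92.9% of it and replicate 2 clusters 91.5%. The next, 57.3 kb from 2867944 to 2925238 with a score of 0.632, was covered over 46.3% by 10 clusters of replicate 1 and over 70.0% by 12 clusters of replicate 2. The series-wide list thus joined into a single domain what the replicate lists gave as many short clusters. The third, from 1138932 to 1182928, was 44.0 kb long with a score of 0.893, and was covered over 93.6% and 98.7%. It overlapped the longest X cluster of each replicate, at 1138927 to 1168990 (30.1 kb) in replicate 1 and 1139097 to 1170619 (31.5 kb) in replicate 2.

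The remaining 7 of the 10 longest were spread along the arm, and 3 of them lay in the distal dense stretch, at 2931820 to 2964896 (33.1 kb), 3314846 to 3345450 (30.6 kb, score 0.802) and 981730 to 1006588 (24.9 kb). The others were at 6502948 to 6542484 (39.5 kb), 13118676 to 13143046 (24.4 kb), 17373468 to 17397732 (24.3 kb) and 18426174 to 18450248 (24.1 kb). The replicates covered between 63.6% and 91.5% of these 7 domains in replicate 1, and between 67.3% and 89.3% in replicate 2. Each of the 7 was divided among several clusters in both replicate lists.

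Clusters were farther apart on the X in the replicate lists. The median gap, the number of bases between a cluster and the next, was 3507 bp on the X in replicate 1 and 4499.5 bp in replicate 2, against 2289 to 2848.5 bp and 2511.5 to 2999.5 bp on the autosomal arms. The ratio to the mean of the 4 arms was 1.47 ± 0.21 (SD, n = 2), and it was 1.12 in the series-wide list, with 2103 bp against 1721 to 1975 bp. The X had fewer close neighbours, with 25.3% and 23.4% of gaps under 1 kb, against autosomal means of 28.9% and 28.6%. It had more wide gaps, with 11.7% and 13.9% over 50 kb, against 8.36% and 9.05%. The direction depended on the score threshold. Among clusters at or above the median score of their list the ratio was 0.786, so that the higher-scoring X clusters lay closer together than those of the autosomes. A single score threshold per list keeps a larger part of the X clusters, whose scores were higher. Its part in the reversal was not tested.

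**Figure D2:**
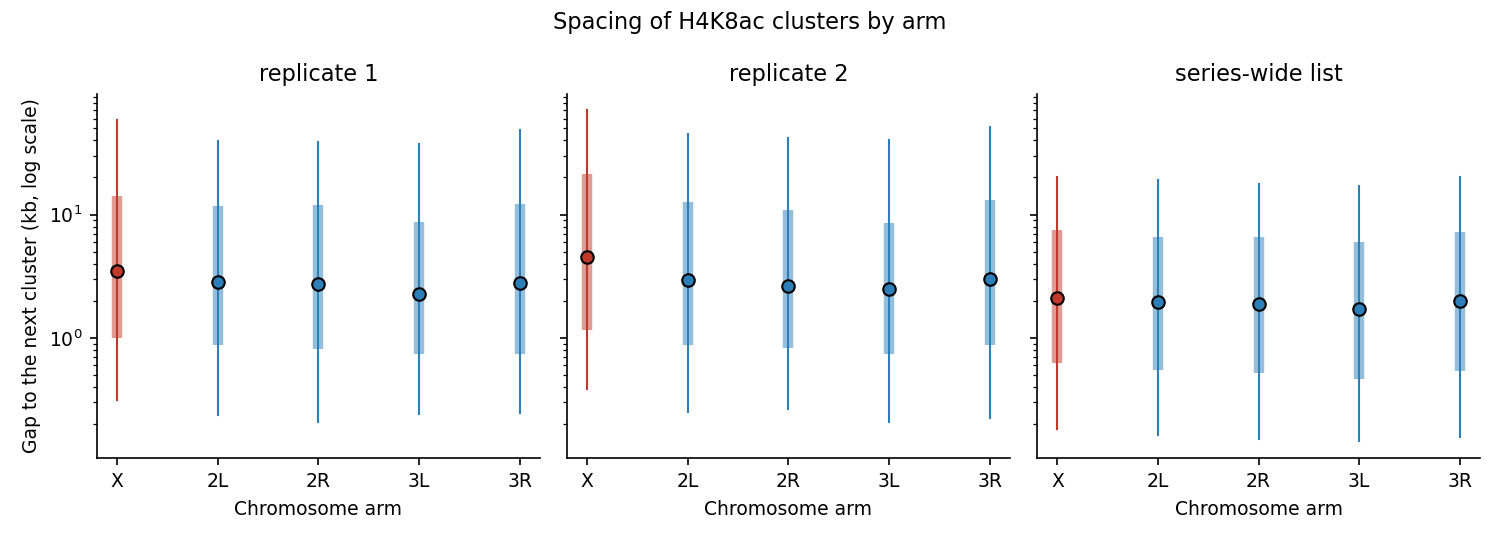
Gap from each cluster to the next in kb on a log scale (vertical axis) for the X and the 4 autosomal arms (horizontal axis), with a panel for each list. Points are medians, thick bars run from the 25th to the 75th percentile and thin lines from the 10th to the 90th. The X median lies above every autosomal median in each panel, at 3507 bp, 4499.5 bp and 2103 bp.

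The longest stretches of the X with no cluster in any of the 3 lists were 185 to 227 kb long. They ran from 15763605 to 15990846 (227 kb), from 4583489 to 4788697 (205 kb), from 12795149 to 12988101 (193 kb), from 3374649 to 3561265 (187 kb) and from 11052087 to 11236999 (185 kb). The fourth of them begins inside a window that was among the 5 most covered, 3250001 to 3500000, so that dense and empty sequence lay next to each other. Gaps of 100 kb or more free of both replicates numbered 37 and made up 6.00 Mb, or 29.4% of the X used here. Those free of all 3 lists numbered 21 and made up 3.24 Mb, or 15.9%. No autosomal values are given beside these sums, so they describe the X only.

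The X clusters that were called had higher scores than autosomal clusters of the same length. The score is the authors' own value for a cluster, and from 1301 bp upward it was higher in longer clusters on the X and on the autosomes. Each X cluster was therefore ranked among the autosomal clusters of its list within 10% of its length, where a percentile of 50 means no difference. The median X cluster stood at percentile 85.2 in replicate 1, 84.1 in replicate 2 and 83.5 for the series-wide list. The mean of the replicates was 84.7 ± 0.76 (SD, n = 2). Each autosomal arm, ranked in the same way against the other 3, stood at 48.4 to 56.7, 47.0 to 52.7 and 46.7 to 55.6. The distance of the X from the highest autosomal arm was thus larger than the spread among the arms and between the replicates.

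The higher score was spread over most X clusters. In replicate 1, 84.6% of X clusters lay above the 50th percentile of autosomal clusters of matched length, and in replicate 2 it was 83.9%. Above the 90th percentile were 41.2% and 38.4%, where the autosomal arms had 7.20% to 11.5% and 6.49% to 12.2%. Below the 10th percentile were 1.14% and 1.88%, against 8.26% to 9.93% and 8.96% to 9.68% on the autosomal arms. Without matching on length, the X scores were higher by 0.061 to 0.070 in replicate 1 at the 5th, 25th, 50th, 75th and 95th percentiles, by 0.054 to 0.090 in replicate 2 and by 0.054 to 0.059 in the series-wide list. The shift was present from the lowest-scoring clusters to the highest.

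The scores lie on a log2 scale, as found from their values. The constant of each list was taken as its most frequent score. In replicate 1, 99.5% of all scores equalled the constant 0.528 plus the log2 of a ratio of whole numbers with a denominator of at most 3000, to a relative tolerance of 1e-11. In replicate 2 the constant was 0.432 and the share 99.9%, in the series-wide list 0.483 and 97.5%, and with a shifted constant the share was 0 in each list. No source used here says what these whole numbers count or what the constant stands for. On this log2 scale the median X cluster exceeded the median of its autosomal length matches by 0.0780 in replicate 1, 0.0819 in replicate 2 and 0.0598 for the series-wide list. The replicate mean was 0.0800 ± 0.0028 (SD, n = 2), which corresponds to a ratio of 1.06. The difference of the X is thus a small step in ratio.

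Over all lengths, both numbers of the ratio were lower on the X than on the autosomes, and the bottom number by more. Since the ratios are known in lowest terms, they were summarised by the 90th percentile of the number per kb of cluster, among clusters for which the ratio was found. The bottom number came to 103 per kb in replicate 1 and 90.1 in replicate 2 on the X, and 138 and 119 on average over the autosomal arms. The top number came to 113 and 106 on the X, and 143 and 135 on the autosomal arms. These are X to autosome ratios of 0.747 and 0.755 for the bottom number and 0.790 and 0.786 for the top number. Series-wide, the ratios were 0.762 and 0.791. In all 16 combinations of list and length class under 10 kb, the X median per kb lay below the lowest autosomal arm for both numbers. From 10 kb upward this did not hold in every list. The X lay below the lowest arm in replicate 2 and within the range of the arms in replicate 1. In the series-wide list it lay above the highest arm, at 158 for the top number and 129 for the bottom number, against at most 131 and 125. There the ratio was found for 43 of 63 X clusters and 266 of 483 autosomal clusters. The search stopped at a denominator of 3000, which long clusters can exceed, and the ratios are in lowest terms. The order of the arms from 10 kb upward is therefore not read as a result. The score is the constant plus the log2 of the top over the bottom number. With a lower top number, a higher score therefore requires a bottom number that is lower by more. What lies behind the lower numbers on the X under 10 kb was not tested.

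The higher score was found at every length. In each of 19 combinations of list and length class, the median score of the X was above that of the highest autosomal arm. The difference from the autosomal median ran from 0.053 to 0.098. Among clusters of 1301 bp to under 1600 bp in replicate 1 the medians were 0.607 on the X and 0.528 on the autosomes, and among those of 10 kb or more 0.888 and 0.790. In replicate 2 these medians were 0.638 and 0.564 for the short class and 0.878 and 0.813 for the long class. Single long domains could still fall below the autosomal level. The 39.5 kb domain at 6502948 to 6542484 stood at percentile 38.1 of its 21 length matches, and 47 of the 61 ranked domains of 10 kb or more stood above the 50th.

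**Figure D3:**
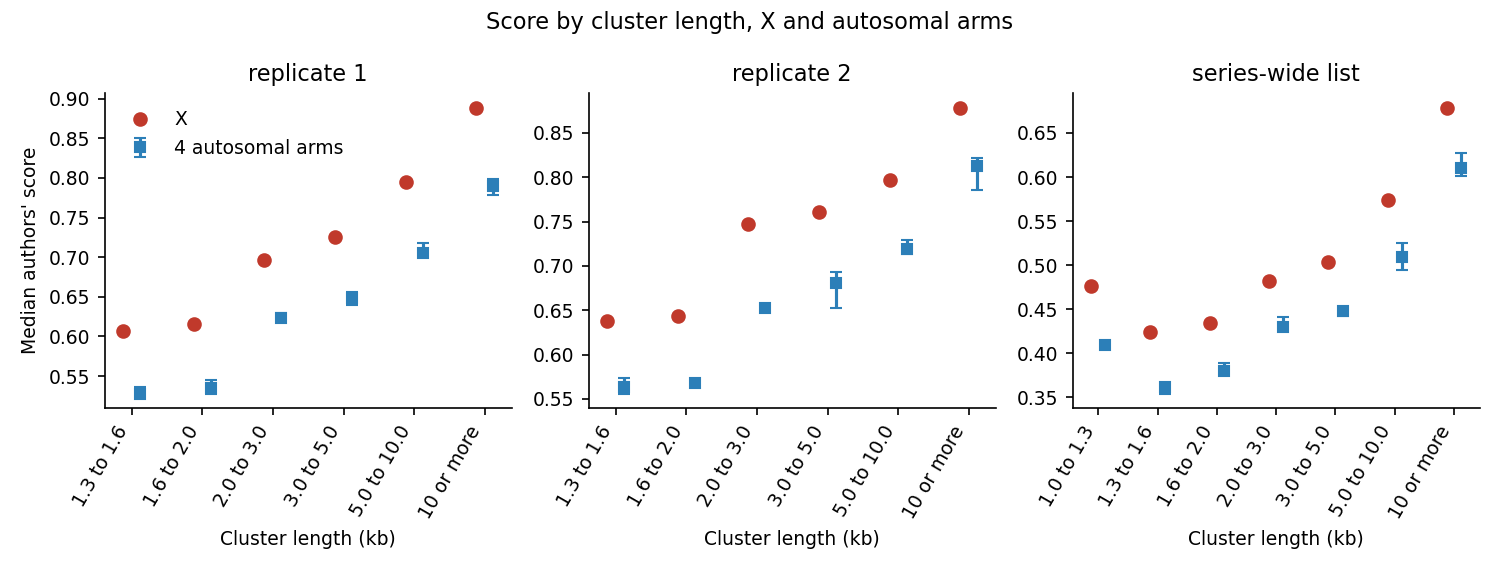
Median score of the authors on its log2 scale (vertical axis) by cluster length in kb (horizontal axis), with a panel for each list. Circles are the X, squares all clusters of the 4 autosomal arms, and bars run from the lowest to the highest arm. The X circle lies above the autosomal range in all 19 classes.

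The higher score also ran along the whole X. In the 8 full stretches of 2.5 Mb, the median percentile ran from 78.3 to 92.3 in replicate 1, from 69.4 to 88.9 in replicate 2 and from 79.2 to 89.4 in the series-wide list. The 34 autosomal stretches had 34.5 to 62.2, 38.9 to 66.5 and 38.6 to 62.3. Every X stretch stood above every autosomal stretch of its list. In replicate 1 the highest values were in the stretches from 17.5 to 20 Mb (92.3) and from 0 to 2.5 Mb (89.4), which hold most of the dense windows. In replicate 2 the distal stretch was the highest, at 88.9, followed by 10 to 12.5 Mb (87.6) and 17.5 to 20 Mb (87.2), and the lowest, 69.4, lay between 7.5 and 10 Mb. The left-out proximal end stood at 70.1 in replicate 1 (19 clusters), 53.2 in replicate 2 (22 clusters) and 90.8 in the series-wide list (57 clusters), so the lists differed there.

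Isolated clusters shared the higher score. X clusters within 1 kb of another stood at median percentiles of 84.8 in replicate 1 and 85.6 in replicate 2, and those at least 20 kb from any other at 79.5 and 79.7. The same classes of series-wide clusters stood at 82.0 and 88.1. Isolated X clusters were also shorter, with medians of 1602.5 bp and 1526.5 bp in the replicates, against 2117 bp and 2086 bp for those within 1 kb of another.

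**Figure D4:**
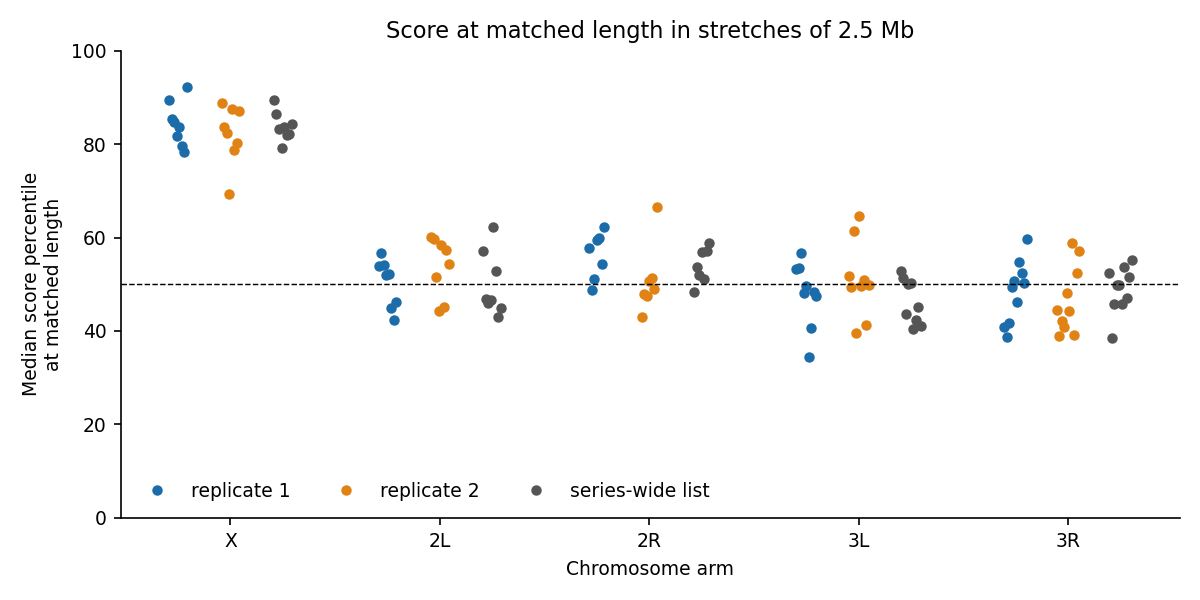
Median score percentile at matched length (vertical axis) in stretches of 2.5 Mb of the X and of the 4 autosomal arms (horizontal axis), with a point for each stretch and a colour for each list. The dashed line marks the 50th percentile, at which a stretch does not differ from autosomal clusters of the same length. All 8 X points of each list lie above all 34 autosomal points, the lowest X point at 69.4 and the highest autosomal point at 66.5.

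The single clusters with the highest scores were partly at places with a cluster in every list and partly short clusters that the other lists lacked. The top score of the X in replicate 1 was 1.21 at 1450362 to 1462529, and in replicate 2 it was 1.30 at 1454284 to 1462514, in the same place. The series-wide cluster there, 1448940 to 1462538, had a score of 1.03 and ends just before the longest domain of the X. The third score of replicate 1, 1.11 at 5781031 to 5794281, met a replicate 2 cluster with a score of 0.995 and a series-wide cluster, 5777780 to 5794616, with 0.989. The second score of replicate 2, 1.18 at 2220300 to 2223714, met a replicate 1 cluster with a score of 1.08 that ranked 5 on the X. These high scores were thus found at the same places in both replicates.

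By contrast, 19823009 to 19824360, with 1.17 the second score of replicate 1, and 14161526 to 14162849, with 1.18 the third of replicate 2, met no cluster in either of the other lists. They were 1352 bp and 1324 bp long. In the series-wide list the top score, 2.07 at 14451750 to 14452864, and the third, 1.02 at 7020256 to 7021276, belonged to clusters of 1115 bp and 1021 bp that met neither replicate list. The score of the top cluster rests on a ratio of 3 to 1 in lowest terms, and that at 7020256 on 42 to 29. Replicate clusters were at least 1301 bp long, so these 2 clusters fall below the shortest length in the replicate lists. Among series-wide X clusters of at least that length, the 5 highest scores belonged to domains of 13.6 to 60.3 kb. They included 6875966 to 6892718, with a score of 0.842, which was covered over 98.7% in replicate 1 and 98.4% in replicate 2.

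A smaller share of X clusters than of autosomal clusters was found in the other replicate. Of the 876 X clusters of replicate 1, 553 (63.1%) overlapped a cluster of replicate 2 by at least 1 base, and of the 797 in replicate 2, 541 (67.9%) overlapped replicate 1. Over the 5 arms together the shares were 68.8% and 73.7%, and on the autosomal arms they ran from 68.7% to 71.1% and from 73.0% to 76.8%. The X lay below the lowest autosomal arm in both replicates, with a mean of 65.5% ± 3.36 (SD, n = 2). Shared X clusters were longer, with medians of 2138 bp and 2100 bp, than X clusters in a single replicate, with 1595 bp and 1553.5 bp. Their score percentiles were close, at 85.3 and 83.9 for shared clusters and 84.8 and 84.6 for the others.

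The lower share held at matched length among short clusters. In all 8 combinations of replicate and length class under 5 kb, the share of the X was below the autosomal share, by 1.69 to 8.18 percentage points, and in 6 of the 8 it was below the lowest autosomal arm. Among clusters of 1301 bp to under 1600 bp, 37.8% of the X clusters of replicate 1 were shared, against 46.0% of the autosomal ones, and 46.4% of those of replicate 2, against 50.9%. From 5 kb upward every X cluster was shared in both replicates, and so were at least 99.1% of those on each autosomal arm. The match was on the length of the cluster itself and not on the density of the other list. Replicate 2 had 39.0 clusters per Mb on the X, against 45.7 to 57.1 on the autosomal arms. For replicate 1 it was 42.9, against 46.6 to 58.3. The part of this lower density in the lower share was not tested. The replicates had 1.32 Mb of the X in common, equal to 58.8% of the cluster bases of replicate 1 and 64.5% of those of replicate 2.

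**Figure D5:**
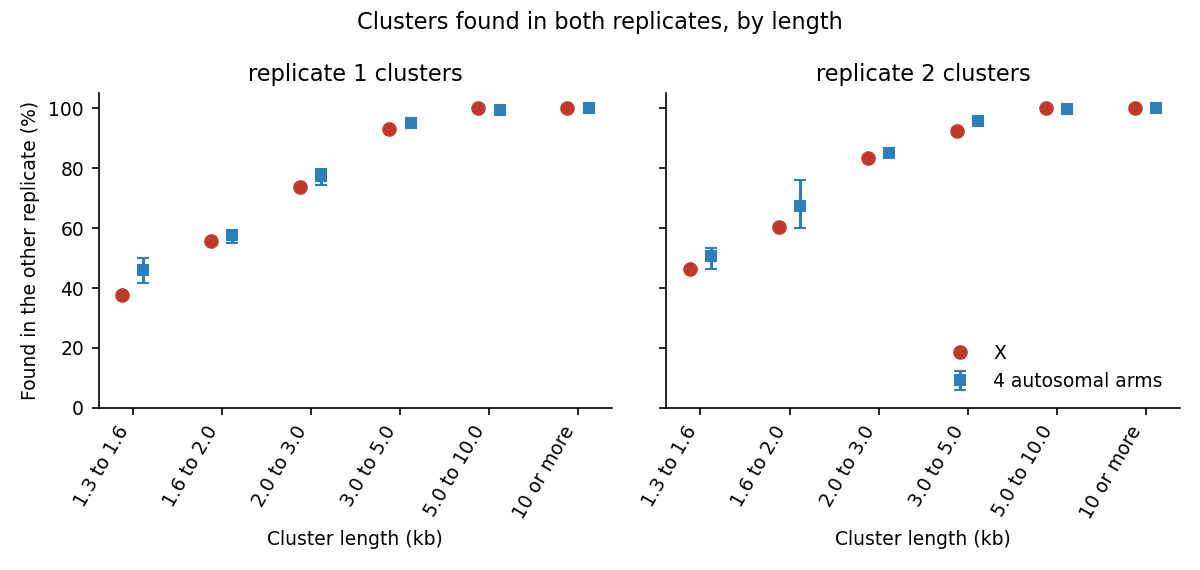
Share of clusters with at least 1 base in the other replicate (vertical axis, percent) by cluster length in kb (horizontal axis), for replicate 1 clusters and replicate 2 clusters. Circles are the X, squares the autosomal arms together, and bars run from the lowest to the highest arm. The X lies 1.69 to 8.18 percentage points below the autosomal share under 5 kb, and at 100% from 5 kb upward.

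Where both replicates called an X cluster, its borders and score varied between them. Pairing X clusters that overlapped each other most gave 491 pairs, with a median shift of 423 bp at the start and 406 bp at the end, against 445 to 572 bp and 425 to 498.5 bp on the autosomal arms. The Spearman correlation of score over the pairs was 0.48, within the 0.48 to 0.62 of the autosomal arms. For length it was 0.47, below the lowest autosomal arm (0.58 to 0.66). Pairs of an arm share strain and caller. Of these pairs, 360 (73.3%) stood above the 50th percentile at matched length in both replicates, and 17 stood at or below it in both. On the autosomal arms 29.5% to 32.7% of pairs stood above it in both. Most paired X clusters thus stood above the 50th percentile in both replicates. Since 84.6% of X clusters in replicate 1 and 83.9% in replicate 2 stood above it, a high share of pairs follows from the single lists. The count therefore does not measure how far the same clusters score high in both. Over windows of 100 kb the Spearman correlation of coverage between the replicates was 0.93 on the X (204 windows), against 0.95 to 0.96 on the autosomal arms.

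The series-wide list held many clusters that neither replicate list had, on the X and on the autosomal arms. Of its 1722 X clusters, 383 met both replicate lists, or 22.2% (95% Wilson interval 20.3% to 24.3%, for counting error only). The share was 25.4% over the 5 arms together and 26.2% (25.2% to 27.2%) over the 4 autosomal arms. The intervals treat clusters as independent, which neighbours need not be, and are no test between arms. These shares were not matched on length. Replicate 1 alone was met by 239 X clusters (13.9%) and replicate 2 alone by 195 (11.3%), against 13.5% and 10.6% on the autosomal arms. The remaining 905 (52.6%) met neither, against 50.2% over the 5 arms together and 49.7% over the 4 autosomal arms. Clusters shorter than 1301 bp, the shortest length in the replicate lists, made up 26.6% of the series-wide X clusters and 26.4% of the autosomal ones. On the X, median lengths were 4869 bp for those in both and 1325 bp for those in neither. They were 2103 bp and 1931 bp for those in replicate 1 or replicate 2 alone. At matched length, the median score percentile was 86.1 for those in both, 75.2 for replicate 1 alone, 83.1 for replicate 2 alone and 84.9 for those in neither. In the other direction, 871 of the 876 replicate 1 clusters and 788 of the 797 replicate 2 clusters of the X met a series-wide cluster. No autosomal share is given beside these counts, so they are not read as a trait of the X.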

How the data were processed

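Input and ChIP libraries of Oregon-R larvae were sequenced, and per the submitters' processing notes Bowtie 0.12.7 was the aligner. Each cluster was deposited with its arm, start, end and a score set by the authors. Per the file headers, positions follow FlyBase release 5. How clusters were called, what role the inputs had, and whether the series-wide list pools the replicates, no source used here says. The depth per sample is unknown, since the lists carry no read counts. Samples were grouped by their titles. The lists held 0 columns belonging to samples of another series.

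Clusters were counted, measured, overlapped and ranked with pandas 2.3.3, numpy 2.4.6 and scipy 1.17.1 under Python 3.11.15, and drawn with matplotlib 3.10.9. Lengths of arms came from the file headers. Percentiles at matched length needed at least 10 autosomal clusters within 10% of the length, and ties counted at their mid-rank. The code was tested on simulated lists. Shared means at least 1 base in common. The main values are means of the 2 replicate lists.

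The regions named are the 10 longest and 5 highest-scoring series-wide X clusters, the 5 highest-scoring of at least 1301 bp, the 3 highest-scoring of each replicate, the 5 longest gaps free of all lists, the 5 most and 5 least covered 250 kb windows and the clusters at the position limit. Other regions named were chosen after their values were seen. The members and lists were chosen with earlier results of these data known. Alternatives covered the list, a score threshold, a length minimum, whole arms, merging, wider length matching, shared clusters only, window size and stricter overlap. The score difference and the X without its first 4 Mb were added after seeing the data. The gene table used here follows release 6, so no gene is named from a position and no sequence is given.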

Additional observations from a re-analysis of the deposited data

How the results depend on the processing

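Of 57 values under alternatives, 26 stayed within 1 SD of the replicates, 30 moved further in value and 1 reversed. For the series-wide share, the limit was its 95% interval instead. The 26 include every value with a replicate left out, because with 2 replicates such a value always lies within 1 SD of their mean. The X to autosome ratio of covered share was 0.790 in the series-wide list, 0.774 among its clusters of at least 1301 bp, 0.791 among clusters at or above the median score, 0.637 over whole arms and 0.546 for the X without its first 4 Mb. It was 0.644 to 0.654 when a replicate was left out. The ratio of mean length was 0.649 above the median score, 0.781 with clusters under 1000 bp apart merged and 0.750 without the first 4 Mb, and 0.804 to 0.850 when a replicate was left out. The ratio of median gap was 1.12 in the series-wide list, 1.17 at 1301 bp and 1.71 without the first 4 Mb, and it reversed to 0.786 above the median score. It was 1.32 to 1.62 when a replicate was left out. The score percentile was 83.5 in the series-wide list, 82.1 at 1301 bp, 79.3 above the median score and 83.4 without the first 4 Mb, and 84.1 to 85.2 when a replicate was left out. The score difference was 0.0598, 0.0567, 0.0486 and 0.0755 under the same 4 settings and 0.0834 with lengths matched within 25%, and 0.0780 to 0.0819 when a replicate was left out. The share of empty windows was 4.41% in the series-wide list, 11.3% at 1301 bp, 26.2% above the median score, 23.2% over the whole X and 1.85% in 250 kb windows, and 17.6% to 20.1% when a replicate was left out. X clusters shared between replicates came to 43.7% under reciprocal 50% overlap and 60.9% above the median score. Series-wide X clusters in both replicates came to 13.2% under 50% coverage, 30.3% at 1301 bp and 28.9% above the median score. Stricter overlap can only lower a share. A score threshold set per list keeps a larger part of the higher-scoring X clusters, and its part in the changed values was not tested. For the other changes the cause was not tested either.

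Leaving out a replicate of 2 gives the value of the other and does not measure stability. No paired analysis was possible because no cluster list of an input was analysed here, and the replicate numbers are shared between inputs and ChIP. The score difference and the X without its first 4 Mb were chosen after seeing the data. Without read counts, it is unknown how depth limits short clusters, and the shortest cluster was 1301 bp in the replicate lists but 1001 bp in the series-wide list.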

Other observations

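Scores equal to the constant of their list, at which the whole-number ratio is 1 to 1, differed in number between the lists. On the X, 17 clusters of replicate 1, 2 of replicate 2 and 44 of the series-wide list had that score. The whole lists had 144, 34 and 127. The X held 876 of all 5692 clusters of replicate 1, 797 of 5482 of replicate 2 and 1722 of 9912 series-wide. The constant lies at the 25th percentile of the autosomal scores in replicate 1, below the 5th in replicate 2 and above the 75th series-wide. The counts are therefore not read as a trait of the X. The constant was taken as the most frequent score of each list, so the 1 to 1 ratio at that score is by construction.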
